A study of Mus musculus with 8 samples.

Results

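The comparison described here set embryonic stem (ES) cells labelled as having reduced expression of H19, called the H19-labelled arrays, against normal ES cells. Its members were chosen by the sample titles and number 4 of the 8 arrays of the study, 2 for each of these groups. The weight of the description lies on genes that differed in the same direction from each of the 2 normal arrays, because the normal arrays differed from one another.

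The study profiled total RNA of mouse ES cells of a B6D2F1 hybrid background on Illumina bead arrays, in 4 groups of 2 arrays. The normal ES cells came from a mouse embryo, per the labels, and the parthenogenetic ES cells from mouse oocytes. The H19-labelled and the Igf2-labelled arrays, the latter labelled as overexpressing Igf2, each come from genetically modified parthenogenetic ES cells. Parthenogenetic and Igf2-labelled arrays were normalised and fitted together with the compared arrays, so they contribute to the spread behind every p-value. Their levels are also set beside those of the comparison, and the H19-labelled arrays are compared with the parthenogenetic arrays as well. The labels do not say how either line was modified, or whether a line is 1 clone. The H19-labelled cells share parthenogenetic origin with 2 other groups and not with normal ES cells, so the effects of the modification, of parthenogenesis and of any other difference between the lines cannot be told apart in this comparison. The labels call the arrays biological replicates without saying that they came from separate cultures. P-values here reflect only how far arrays of the same group lay apart, pooled over the 4 groups, and this spread may be technical.

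Imprinted genes are expressed from 1 parental copy only, according to DNA methylation set in the egg or sperm. Parthenogenetic cells carry maternal chromosomes alone, so genes expressed from the paternal copy are normally silent in them and no Y chromosome is present. H19, a long noncoding RNA expressed from the maternal copy, and Igf2, a growth factor gene expressed from the paternal copy, are neighbours that share enhancers and are controlled in opposite ways by 1 imprinting control region. ES cells move between a naive state, a primed state and early differentiation under WNT, NODAL and FGF signalling, and loss of DNA methylation in such cells is known to release genes of the germ line.

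Each array reported 25697 probes, with a median intensity between 172.1 and 196.7 units and with 47.1% to 49.5% of probes detected, that is with a detection p-value under 0.05. All 8 arrays were normalised together, and levels below are log2 normalised intensities, which can be compared between arrays for 1 probe but not between probes. Probes detected on both arrays of either group were tested, 12438 in all, and each of 8506 named genes is represented by its brightest probe. The 8 ES cell markers Pou5f1, Sox2, Nanog, Zfp42, Esrrb, Dppa5a, Utf1 and Tdgf1 were detected on 8 of 8 arrays, and their differences between the compared groups ran from -0.01 to 0.55. The normal arrays correlated at 0.961 over the tested probes, and 929 of these lay more than 1 log2 unit apart. The H19-labelled arrays correlated at 0.996 and 17 probes lay that far apart.

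In the limma fit of all 8 arrays, 461 of 8506 genes passed an adjusted p of 0.05 in H19-labelled against normal ES cells. Of these, 254 rose, which is 2.99% of the genes tested, and 207 fell, which is 2.43%. The change was 2-fold or more for 79 of the rises and 84 of the falls. Counted by probes, 412 were higher and 287 lower, in all 699 or 5.62% of the probes tested, and 2648 had an unadjusted p under 0.05. For each of the 699 probes both H19-labelled arrays lay on the same side of both normal arrays. Among all genes, 23.1% lay above both normal arrays and 21% below both. For 674 of the 699 probes the distance to the nearer normal array was wider than the distance between the normal arrays. This held for 2380 of the 12438 tested probes. The 699 probes were selected on these same arrays. Both counts follow in part from that selection and are not separate support. In total RNA of a culture, fewer cells of a type and less RNA per cell cannot be told apart.

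The normal arrays weigh on this count from both sides. A fit without a normal array takes its spread from the other groups, so passing it does not measure the spread of the normal cells. The count of 699 was 4034 without normal replicate 1 and 3907 without normal replicate 2, while it was 64 with array weights and 2, the probes of Snrpn and Eif2s3y, in a fit of the compared groups alone. It was 42 and 50 without H19-labelled replicates 1 and 2, 257 without either parthenogenetic array and 276 without either Igf2-labelled array. Of the 461 genes, 27 passed whichever array was left out, 11 higher and 16 lower, 126 missed the threshold without either H19-labelled array and in no other such fit, and 266 passed only without a normal array. Against normal replicate 1 alone, 610 probes lay over 1 log2 unit from the H19-labelled mean, and 624 did against normal replicate 2, but 179 did so in the same direction against both. The scatter of the difference from one normal array over the difference from the other shows this spread, with Igf2 among the genes whose sign depends on the normal array used.

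**Figure D1:**
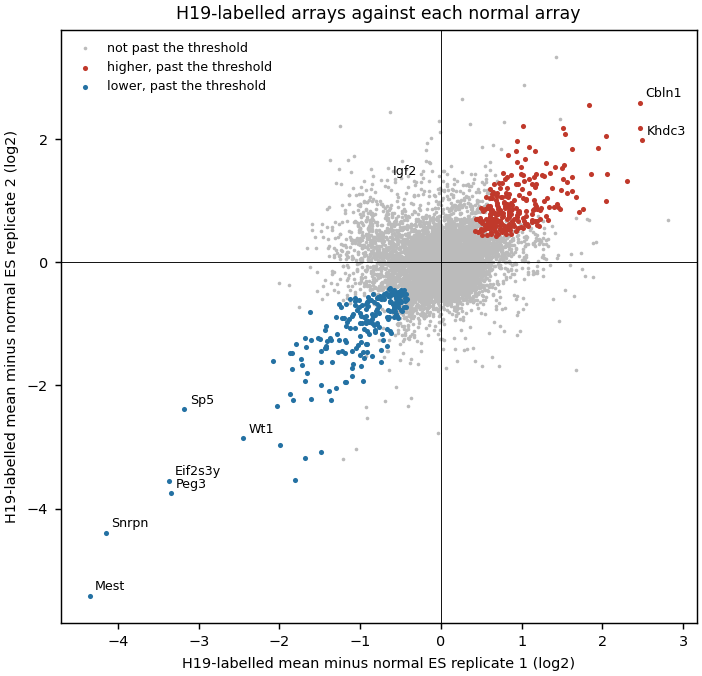
Difference of the H19-labelled mean from normal ES replicate 1 (x axis) and from normal ES replicate 2 (y axis), both in log2, for 8506 genes, with 254 genes that rose in red and 207 that fell in blue. Genes past the threshold sit in the upper right and lower left parts of the plot, and the grey cloud extends along both axes.

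The paternally expressed imprinted genes Mest and Snrpn led the falls. Of 14 measured members of a list of 32, 5 fell (Mest, Snrpn, Peg3, Peg10 and Impact) and 1 rose (Sfmbt2), beside 2.43% and 2.99% of all genes. The median difference was -0.38, beside a median of -0.01 over all genes. Both H19-labelled arrays lay below both normal arrays for 7 members, against 21% of all genes, and above both for 2, against 23.1%. The 5 other members overlapped between the groups, as 55.8% of all genes did. The promoters of the 3 members with the largest falls are shown because imprints at such promoters are held by methylated DNA that the zinc finger protein ZFP57 binds at the letters TGCCGC. They span 250 bases before to 50 bases after a start listed by RefSeq (build GRCm38.p6), 5′ to 3′ on the gene's strand, with TGCCGC or its reverse complement GCGGCA in capitals.
Mest, chr6:30737800-30738099, plus strand: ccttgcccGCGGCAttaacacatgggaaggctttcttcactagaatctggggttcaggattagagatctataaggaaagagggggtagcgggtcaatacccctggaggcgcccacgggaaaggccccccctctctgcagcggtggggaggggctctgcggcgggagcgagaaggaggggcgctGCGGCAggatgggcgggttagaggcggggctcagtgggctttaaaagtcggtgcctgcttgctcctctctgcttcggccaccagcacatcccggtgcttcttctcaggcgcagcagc
Snrpn, chr7:60005150-60005449, minus strand: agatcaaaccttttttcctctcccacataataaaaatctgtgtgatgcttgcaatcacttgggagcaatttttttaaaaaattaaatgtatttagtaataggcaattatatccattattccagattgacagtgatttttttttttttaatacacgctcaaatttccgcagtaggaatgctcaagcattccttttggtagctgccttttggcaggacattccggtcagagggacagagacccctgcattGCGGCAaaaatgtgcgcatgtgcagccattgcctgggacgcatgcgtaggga
Peg3, chr7:6730370-6730669, minus strand: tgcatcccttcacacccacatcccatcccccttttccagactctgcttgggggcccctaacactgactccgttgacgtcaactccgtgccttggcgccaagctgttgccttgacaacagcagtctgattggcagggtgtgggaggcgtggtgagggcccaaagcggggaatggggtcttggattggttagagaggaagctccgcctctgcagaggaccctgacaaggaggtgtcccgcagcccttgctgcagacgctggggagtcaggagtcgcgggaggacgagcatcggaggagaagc
The motif occurs 2 times in the Mest window, 1 time in that of Snrpn and 0 times in that of Peg3, and 11.6% of 32851 mouse promoter windows of 300 bases hold it at least once. RefSeq lists 3 starts for Mest and 4 for Snrpn, and the start whose window has the most CpG dinucleotides is shown. The windows hold 17, 7 and 13 CpG dinucleotides, beside a median of 7 over all windows. A match describes the letters and is not a measured binding site.

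Mest, a gene of the hydrolase family, had levels of 10.69 and 11.75 on the normal arrays. On the H19-labelled arrays the levels were 6.24 and 6.44, and the probe was not detected. It was at least 24.6-fold lower (adjusted p = 0.00124 in limma), and its other probes, also not detected on the H19-labelled arrays, passed in the same direction. On the parthenogenetic arrays it was not detected either, at 6.29 and 6.35, and on the Igf2-labelled arrays it stood at 8.95 and 8.89, between the groups. Snrpn, which encodes a splicing protein and belongs to the Prader-Willi region, fell by 4.27 (SE 0.13, adjusted p = 1.08e-04), a 19.3-fold change, from 13.14 and 13.38 to 8.88 and 9.09. The parthenogenetic arrays, at 9.16 and 9.24, lay near the H19-labelled arrays. Peg3, a zinc finger gene, was at 8.89 and 9.29 on the normal arrays and not detected on the H19-labelled arrays, at least 5.61-fold lower (adjusted p = 4.00e-04). In all 3 genes both H19-labelled arrays were far below both normal arrays, and each passed whichever array was left out.

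The other members changed less. Peg10, a retrotransposon-derived gene needed in the placenta, had levels of 8.07 and 7.73 on the normal arrays against 6.65 and 6.29 in the H19-labelled group, where it was detected on 1 of 2 (change -1.43, adjusted p = 0.0206). It missed the threshold without either H19-labelled or either parthenogenetic array. Impact, a regulator of the translation control kinase GCN2, fell by 1.02 (SE 0.11, adjusted p = 0.00679), from 12.85 and 12.63 to 11.69 and 11.73. Sfmbt2, a Polycomb gene, was not detected on the normal arrays and was at least 1.34-fold higher on the H19-labelled arrays (adjusted p = 0.0481). Without passing, Mkrn3 differed by -0.72, Inpp5f by -0.48 and Slc38a4 by 0.54, each with both H19-labelled arrays on 1 side of the normal arrays. Ndn (-0.28), Ddc (0.15), Dlk1 (0.53) and Jade1 (-0.05) overlapped between the groups. For Ndn, the Prader-Willi region neighbour of Snrpn, the normal arrays stood at 12.48 and 11.41 and enclosed the H19-labelled levels of 11.64 and 11.68.

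Y-linked genes differed in the same direction. Eif2s3y, the Y-linked gene of a translation initiation factor subunit, had levels of 10.78 and 10.96 on the normal arrays and, in H19-labelled cells, 7.34 and 7.48. It fell by 3.46 (SE 0.12, adjusted p = 1.68e-04) and passed whichever array was left out. Its level on the parthenogenetic arrays was 8.16 and 8.12. Uty, the other of 2 measured genes in a list of 7, was lower by 0.48 without passing (adjusted p = 0.155). The probes of both genes were still detected on both H19-labelled arrays, and the source of that signal was not tested. The dot plot of paternally expressed and Y-linked genes shows the normal arrays apart on the right for Mest, Snrpn, Peg3 and Eif2s3y.

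**Figure D2:**
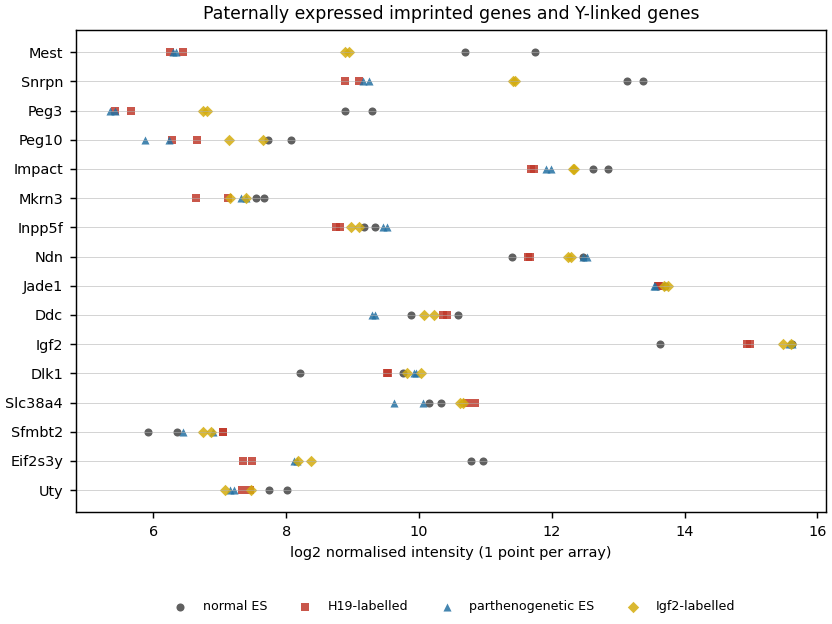
Log2 normalised intensity of 14 paternally expressed imprinted genes and 2 Y-linked genes, 1 point per array, by group. For Mest, Snrpn, Peg3 and Eif2s3y the normal arrays lie above all other arrays, while for Igf2, Ndn and Dlk1 the 2 normal arrays lie far apart.

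The gene named in the label could not be read directly. Of the 11960 named probes 0 carry the name H19, and a probe for it may be among the 13737 left unnamed here. The H19 level is therefore not analysed. Igf2, the neighbour of H19, stood at 15.62 and 13.63 on the normal arrays compared with 14.98 and 14.94 in H19-labelled cells. The H19-labelled arrays lay between the normal arrays, with a difference of 0.33 (SE 0.55, adjusted p = 0.797). Without normal replicate 1 the difference was 1.33, and without normal replicate 2 it was -0.66, so this comparison gives no direction for Igf2. Of 16 measured genes of the IGF axis, which holds the ligands, receptors and binding proteins, 1 rose, beside 2.99% of all genes. It was the RNA-binding protein gene Igf2bp3 at 0.83 (adjusted p = 0.0379). Its second probe, at 0.65, did not pass. Of 18 measured maternally expressed imprinted genes, 0 passed in limma, where 461 of all 8506 genes did. A count of 0 among so few does not set them apart from all genes. An unadjusted p under 0.05 was seen for 6 of the 18, and for 2648 of the 12438 tested probes. The groups overlapped for 12 of the 18, against 55.8% of all genes, and the median was 0.04.

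The largest rises came from genes of different tissues. Cbln1, a synaptic organiser of the cerebellum, rose by 2.53 (SE 0.11, adjusted p = 4.00e-04), from 6.84 and 6.72 on the normal arrays to 9.29 and 9.34. It was detected on 1 of 2 normal arrays. Alpk3, a kinase family gene of heart muscle, rose by 2.04 (adjusted p = 4.99e-04), from 9.10 and 9.10 to 11.15 and 11.14. Both H19-labelled arrays also stood above the parthenogenetic arrays in these genes. That the compared groups did not overlap was a condition of choosing the largest rises. Myl7, the atrial myosin light chain gene, was at least 2.80-fold higher and Il4i1, an amino acid oxidase gene of immune cells, at least 2.82-fold higher, both undetected on the normal arrays. H2-Ab1, a chain of MHC class II, rose by 2.19 (adjusted p = 0.00482), and its 3 other probes also passed in the same direction. Aire, which drives expression of tissue antigens in the thymus, rose by 1.84 (adjusted p = 0.00708).

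Further rises were those of the water and glycerol channel gene Aqp3 (1.81), the tissue kallikrein gene Klk1 (1.82), Vstm2l (1.74), the forkhead gene Foxn4 (1.73), the mitochondrial aspartate and glutamate carrier gene Slc25a13 (1.65), Crtac1 (1.62) and the cytochrome P450 gene Cyp2s1 (1.55). For Aqp3 the levels were 10.52 and 9.97 on the normal arrays, 12.10 and 12.01 on the H19-labelled arrays, 10.15 and 10.06 on the parthenogenetic arrays and 11.46 and 11.21 on the Igf2-labelled arrays. The H19-labelled arrays were thus the highest for this gene. Klk1 was detected on 1 of 2 normal arrays. Crtac1 was the exception among the 14 rises in that its normal arrays, at 8.21 and 7.02, lay farther apart than the higher of them was from the H19-labelled arrays. Of the 14 rises, 12 were also past the threshold against parthenogenetic ES cells, the exceptions being Aire and Crtac1, where 4.54% of all genes passed in either direction. Both comparisons share the H19-labelled arrays, on which these rises were chosen, so the count of 12 is partly built in and is not separate support. Myl7 and Il4i1, among the 12, were tested only because they were detected on the H19-labelled arrays.

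Beyond the imprinted and Y-linked genes, transcription factor genes were among the large falls. Sp5, a direct target of WNT signalling, had levels of 9.62 and 8.84 on the normal arrays against 6.30 and 6.60 in the H19-labelled group. There its probe was detected on 1 of 2 arrays, and Sp5 fell by 2.78 (SE 0.25, adjusted p = 0.00354 in limma). Wt1, a zinc finger gene of kidney and gonad development, fell by 2.65 (SE 0.16, adjusted p = 0.00124), from 9.30 and 9.70 to 6.78 and 6.91. On the parthenogenetic arrays Sp5 stood at 9.69 and 9.53 and Wt1 at 9.36 and 9.48, within or next to the normal range. Bcl11a, a zinc finger gene of blood and brain, was at least 3.10-fold lower, and Sall3, of the spalt zinc finger family, at least 2.08-fold lower. Nsg2, a gene of neuronal vesicle traffic, was at least 3.07-fold lower, and the WNT ligand gene Wnt8a at least 2.17-fold lower. These last 4 were not detected on either H19-labelled array. They and Peg3 rank among the 14 falls by their fitted change, while the bounds of Wnt8a and Sall3 are below the changes of the detected genes Krt8 (3.46-fold), Tnfrsf19 (3.30-fold), Fst (3.25-fold) and Grhl2 (3.16-fold).

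The remaining large falls were those of enzymes, an inhibitor and a PRAME family gene. They were the carbonic anhydrase gene Car4 (-2.48), the trypsin inhibitor gene Spink1 (-2.43), Pramel37 (-2.28) and the carbonyl reductase gene Cbr3 (-1.91). Car4 was detected on 1 of 2 H19-labelled arrays. Pramel37 had normal levels of 8.65 and 10.25, farther apart than the lower of them was from the H19-labelled levels of 7.09 and 7.24. Of the 28 largest changes, 14 passed whichever array was left out, while Klk1, Crtac1, Spink1 and Pramel37 passed only without a normal array. Sp5, Bcl11a and Sall3 missed the threshold without H19-labelled replicate 1, and Aire, Aqp3, Car4, Cbr3, H2-Ab1, Slc25a13 and Vstm2l without either H19-labelled array. For 8 of the 28 genes other probes were tested, 11 in all, and the 11 probes passed in the same direction. The dot plot of these 28 genes shows where the parthenogenetic and Igf2-labelled arrays stood.

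**Figure D3:**
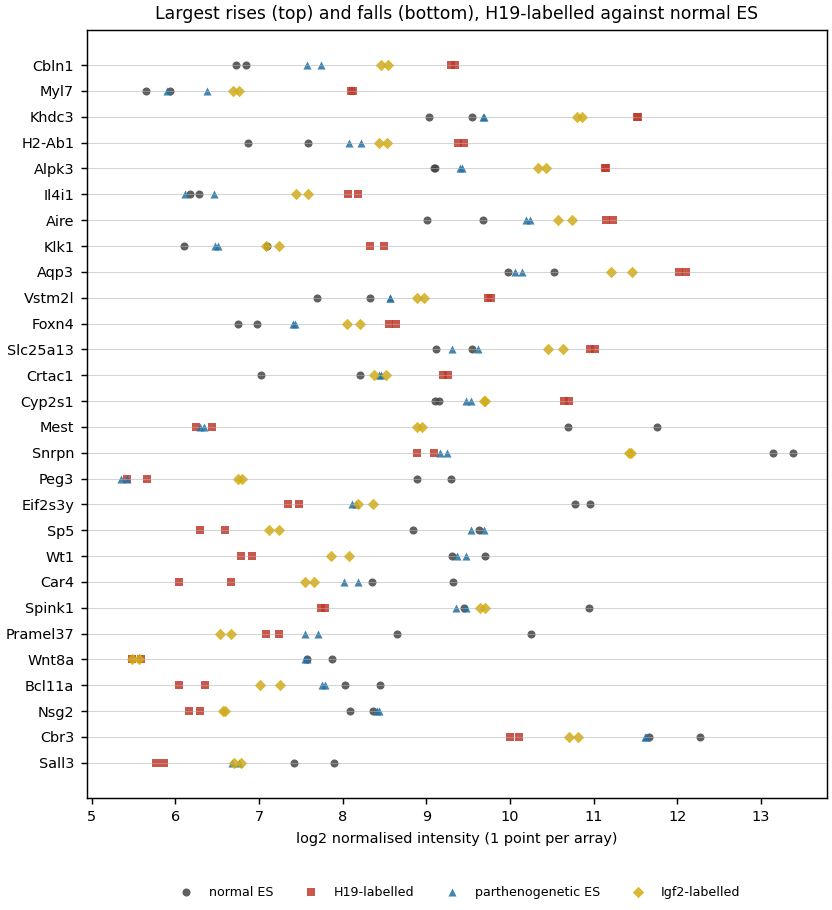
Log2 normalised intensity of the 14 largest rises (top) and 14 largest falls (bottom) by fitted change in H19-labelled against normal ES cells, 1 point per array, by group. Red squares (H19-labelled) and dark circles (normal) do not overlap in any row, as the choice of genes required. For Mest, Snrpn and Peg3 the blue triangles (parthenogenetic) lie beside the red squares.

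Among genes of the WNT pathway 6 of 16 measured members fell and 0 rose, beside 2.43% and 2.99% of all genes. Sp5 and Wnt8a are described above. Tnfrsf19, a TNF receptor family gene induced by WNT, fell by 1.72 (SE 0.13, adjusted p = 0.00186), from 8.82 and 8.96 to 7.22 and 7.11. Axin2, the feedback inhibitor commonly read as a WNT target, fell by 1.25 (adjusted p = 0.0137), and the receptor gene Fzd7 fell by 0.92 (adjusted p = 0.00687). Both H19-labelled arrays were below both normal arrays for 8 members and above both for 3, against 21% and 23.1% of all genes. The list median was -0.16. Tnfrsf19 stood at 8.834 and 9.004 on the parthenogenetic arrays and 7.27 and 7.08 on the Igf2-labelled arrays, so that parthenogenetic ES cells were near normal and the Igf2-labelled arrays near the H19-labelled ones.

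In the NODAL and activin pathway 3 antagonist genes fell and 0 of the 17 measured members rose, beside 2.43% and 2.99% of all genes. Fst, which binds and blocks activin, fell by 1.70 (SE 0.14, adjusted p = 0.00222), from 9.03 and 8.98 to 7.39 and 7.22. Lefty2 and Lefty1, secreted NODAL inhibitors that NODAL itself induces, differed by -1.19 (adjusted p = 0.0236) and -1.13 (adjusted p = 0.0108). The median of this list was 0.01, with 4 members above and 4 below both normal arrays, beside 23.1% and 21% of all genes. In the FGF and ERK pathway 4 of 14 measured members fell and 0 rose, beside 2.43% and 2.99% of all genes. Of its members 7 lay below and 1 above both normal arrays, where 21% and 23.1% of all genes did. The ERK-responsive transcription factor gene Etv5 fell by 1.02, the ligand gene Fgf17 by 0.96, the receptor gene Fgfr1 by 0.66 and the ERK phosphatase gene Dusp4 by 0.60, with adjusted p from 0.00679 to 0.0433. The second Dusp4 probe, at -0.09, did not pass. Of Dusp6, another ERK phosphatase, the brightest probe was lower by 0.52 without passing (adjusted p = 0.0785), and its other probes passed at -0.71 and -0.76.

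Pluripotency genes were split. Of 13 measured core pluripotency genes 0 passed in limma, beside 461 of all 8506 genes, and the median was 0.09. Also 0 of the 13 had an unadjusted p under 0.05, beside 2648 of the 12438 tested probes. In this core list 5 members lay above and 2 below both normal arrays, beside 23.1% and 21% of all genes. Of 15 measured naive genes 3 fell and 1 rose, beside 2.43% and 2.99% of all genes. The falls were those of Gbx2 (-0.86), Dppa3 (-0.57) and Klf2 (-0.49), which help to sustain the naive state. Socs3, the feedback inhibitor of LIF signalling, rose (0.56). The naive median was 0.14, and 5 members lay above and 3 below both normal arrays, against 23.1% and 21% of all genes. Nanog, also in the naive list and on chromosome 6, was above both normal arrays by 0.44 without passing (adjusted p = 0.0845). Among 11 measured genes of the primed epiblast Otx2 rose and 3 fell, beside 2.99% and 2.43% of all genes. Otx2, a homeobox gene that guides the exit from the naive state, was at 9.91 and 9.86 on the normal arrays and, in H19-labelled cells, 11.05 and 11.10 (change 1.19, SE 0.11, adjusted p = 0.00369). Grhl2, which opens epithelial enhancers, fell by 1.66, the POU gene Pou3f1 fell by 1.33, and Wnt8a is given above. Otx2 thus went opposite to the 3 other primed genes that passed, and the list median was -0.18.

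Of 15 measured germ cell and meiosis genes 4 rose and 1 fell, beside 2.99% and 2.43% of all genes. Both H19-labelled arrays lay above both normal arrays for 8, below for 1 and overlapped them for 6, beside 23.1%, 21% and 55.8% of all genes. The median was 0.53. Asz1, a germ cell gene that protects against transposons, had levels of 7.22 and 7.83 on the normal arrays compared with 8.89 and 8.89 in H19-labelled cells and rose by 1.36 (SE 0.20, adjusted p = 0.0144). Sohlh2, a regulator of early germ cell differentiation, rose by 1.14 (adjusted p = 0.00793) from 7.53 and 7.81 to 8.83 and 8.80. Both were lower on the parthenogenetic than on the H19-labelled arrays, with Sohlh2 at 7.06 and 7.08 there. Ddx4, the RNA helicase known as vasa, was at least 1.57-fold higher and undetected on the normal arrays, and the cohesin gene Stag3 rose by 0.71. Rec8, the meiotic cohesin subunit, fell by 1.03 (adjusted p = 0.0167). The list median was 0.67 against normal replicate 1 and 0.22 against normal replicate 2, and without normal replicate 1 the fit called 4 higher and 4 lower.

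Among 9 measured oocyte and preimplantation genes Khdc3 rose and Dppa3 fell, beside 2.99% and 2.43% of all genes, with a median of -0.05. Khdc3, part of the subcortical maternal complex of the egg, had levels of 9.03 and 9.54 on the normal arrays against 11.51 and 11.53 in the H19-labelled group. It rose by 2.24 (SE 0.17, adjusted p = 0.0019) and passed whichever array was left out. The parthenogenetic arrays, at 9.69 and 9.68, stood just above the normal ones and the Igf2-labelled arrays, at 10.86 and 10.80, between these and the H19-labelled arrays. Of 3 measured Rhox homeobox genes, X-linked genes of reproductive tissue, Rhox6 rose by 0.92 (adjusted p = 0.0104), beside 2.99% of all genes. The promoter windows of Khdc3 and Asz1, drawn on the same rule and with TGCCGC or GCGGCA again in capitals, are shown because these largest rises of the lists have opposite CpG content.
Khdc3, chr9:73102148-73102447, plus strand: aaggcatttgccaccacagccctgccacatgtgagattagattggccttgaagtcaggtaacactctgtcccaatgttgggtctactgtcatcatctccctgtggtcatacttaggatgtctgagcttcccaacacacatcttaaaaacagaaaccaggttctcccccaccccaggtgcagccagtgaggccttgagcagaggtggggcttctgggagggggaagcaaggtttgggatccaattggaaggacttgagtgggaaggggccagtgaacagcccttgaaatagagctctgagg
Asz1, chr6:18109012-18109311, minus strand: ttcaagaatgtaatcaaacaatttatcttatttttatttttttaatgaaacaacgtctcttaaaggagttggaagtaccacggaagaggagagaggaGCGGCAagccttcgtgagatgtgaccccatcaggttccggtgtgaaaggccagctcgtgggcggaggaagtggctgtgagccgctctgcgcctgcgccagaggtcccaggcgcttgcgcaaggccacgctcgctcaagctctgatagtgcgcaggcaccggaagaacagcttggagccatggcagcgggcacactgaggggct
The Khdc3 window holds 0 CpG dinucleotides and that of Asz1 holds 17, and 31.4% of all windows hold as many as that of Asz1 or more. Those of Sohlh2 and Rec8 hold 17 and 18. The E-box CACGTG, present in 7.15% of all windows, and the E2F family motif GGCGGGA, in 11.3%, were searched on both strands and occur in 0 of these 4 germ cell and oocyte windows. That says only that the letters are not in these 300 bases.

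Among 9 measured trophectoderm and simple keratin genes, 2 keratins fell and 1 transcription factor gene rose, beside 2.43% and 2.99% of all genes. Of the 9 members 4 lay above and 2 below both normal arrays, where 23.1% and 21% of all genes did. Krt8 had levels of 10.32 and 10.21 on the normal arrays and, in H19-labelled cells, 8.48 and 8.47, a fall by 1.79 (SE 0.10, adjusted p = 0.00114) that held whichever array was left out. Its filament partner gene Krt18 fell by 1.26 (adjusted p = 0.0132). Both keratins stood near normal on the parthenogenetic arrays, with Krt8 at 10.29 and 10.29. Another keratin gene, Krt19, had the opposite sign without passing, at 7.846 and 6.003 on the normal arrays, with detection on 1 of 2, and 8.78 and 8.97 on the H19-labelled arrays (difference 1.95, adjusted p = 0.0942). The Krt19 difference was 2.87 without normal replicate 1 and 1.03 without normal replicate 2. The transcription factor gene Tead4, on chromosome 6, rose by 1.26 (adjusted p = 0.0422).

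Of 15 measured genes of primitive and visceral endoderm 3 fell, beside 2.43% of all genes. Both H19-labelled arrays lay below both normal arrays for 8 of them and above for 0, where 21% and 23.1% of all genes did so, and the median was -0.35. The adaptor gene Dab2 differed by -1.18, the lipoprotein gene Apoe by -0.63 and the laminin gene Lamb1 by -0.61, with adjusted p from 0.0309 to 0.0487, and the second Dab2 probe, at -1.13, did not pass. Of 12 measured neural genes 3 fell and 0 rose, beside 2.43% and 2.99% of all genes. The falls were those of the transcription factor genes Sox21 (-1.23) and Olig1 (-0.56) and the microtubule gene Map2 (-1.10). Both H19-labelled arrays lay below both normal arrays for 6 and above for 2, against 21% and 23.1% of all genes. The neural median was -0.40. Of 4 mesoderm and streak genes 0 passed in limma, beside 461 of all 8506 genes. An unadjusted p under 0.05 was seen for 1 of the 4, and for 2648 of the 12438 tested probes.

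Markers of fibroblasts, which often serve as feeder cells of ES cultures, split the normal arrays. The mean level of 28 measured markers was 11.86 and 10.44 on the normal arrays compared with 10.96 and 10.98 in H19-labelled cells, which lay between them. Acta2, smooth muscle actin, followed the same order, with 14.72 and 12.84 on the normal arrays against 13.71 and 13.67 in the H19-labelled group. For 25 of the 28 genes the groups overlapped, against 55.8% of all genes, and the median difference was -0.87 against normal replicate 1 and 0.47 against normal replicate 2. The 1 member that passed, the matrix gene Ccn2, fell by 0.74 (adjusted p = 0.0129). The fibroblast mean was 11.80 and 11.81 on the parthenogenetic arrays and 11.56 and 11.58 on the Igf2-labelled arrays. The part of these markers in the results above was not tested.

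Genes of glycolysis and the hypoxia response were higher than in both normal arrays for 22 of 30 measured members and lower than both for 0, beside 23.1% and 21% of all genes, with a median of 0.66. Of the 30, 6 rose, beside 2.99% of all genes. Pfkp, a phosphofructokinase gene, had levels of 12.20 and 11.42 on the normal arrays and, in H19-labelled cells, 13.39 and 13.20 (change 1.48, SE 0.24, adjusted p = 0.0197), and its second probe passed at 1.63. The aldolase gene Aldoc rose by 1.11, the adenylate kinase gene Ak4 by 0.96, the hexokinase gene Hk2 by 0.80 and the glucose transporter gene Slc2a3 by 0.71. Hk2 and Slc2a3 lie on chromosome 6, as do 3 of the 6 rises, and the median without chromosome 6 genes was 0.65. The size of the shift depended on the normal array, with a median of 0.29 against replicate 1 and 1.09 against replicate 2, and the median against parthenogenetic ES cells was 0.04. Tpi1, triose phosphate isomerase, was higher by 0.90 without passing (adjusted p = 0.0832), though another of its probes passed at 0.99.

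Of 24 measured genes of endoplasmic reticulum chaperones and amino acid stress, 4 rose and 2 fell, beside 2.99% and 2.43% of all genes, and the median was 0.23. The disulfide isomerase genes Pdia6 (1.10, adjusted p = 0.00631) and Pdia4 (1.08, adjusted p = 0.00512), the chaperone partner Creld2 (0.84) and the serine pathway gene Shmt2 (0.79) rose, and the stress transcription factor gene Atf3 (-0.77) fell. Pdia4 is 1 of 3 measured members on chromosome 6, and the list median without these 3 was 0.13. Of 12 measured genes of DNA methylation and imprint maintenance, Dnmt3l, the cofactor that sets imprints in the egg, rose by 0.62 (adjusted p = 0.0237) and Dppa3 fell. The cell cycle genes E2f1 (0.60) and Cdkn1b rose among 26, the latter at least 1.64-fold and undetected on the normal arrays. The sterol regulator gene Srebf2 (0.58) rose among 17 cholesterol genes. Of 16 p53 targets 0 passed in limma. An unadjusted p under 0.05 was seen for 1 of the 16, and for 2648 of the 12438 tested probes. Of 28 interferon and antigen presentation genes the MHC class I gene H2-K1 (0.58) rose and Mx2 (-0.86) fell. Beside the calls in the methylation, cell cycle, cholesterol, p53 and interferon lists, 2.99% of all genes rose and 2.43% fell. So few calls do not set a list apart. The groups overlapped for 20 of the 28, against 55.8% of all genes. The median of this list changed sign with the normal array used, from -0.57 to 0.15. The plot of list medians gives both values for each list.

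Calls within the lists also depended on single arrays. Apart from Krt8, Fst, Tnfrsf19, Wnt8a, Khdc3 and the genes named so above, which passed whichever array was left out, most list members missed the threshold without an array. Otx2, Impact, Pou3f1, Axin2, Fzd7, Lefty1, Etv5, Fgf17, Gbx2, Asz1, Sohlh2, Ddx4, Rhox6, Sox21, Map2, Ccn2, Hk2, Pdia6, Pdia4, Creld2 and Shmt2 missed it without either H19-labelled array, and Grhl2 and Krt18 without H19-labelled replicate 1. Rec8 missed it without either H19-labelled or either Igf2-labelled array. Pfkp, Aldoc, Ak4, Slc2a3, Stag3, Socs3, Klf2, Dppa3, Lefty2, Fgfr1, Dusp4, Dab2, Apoe, Lamb1, Olig1, Tead4, Igf2bp3, Sfmbt2, Dnmt3l, E2f1, Cdkn1b, Srebf2, H2-K1, Mx2 and Atf3 passed only in the fits without a normal array.

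**Figure D4:**
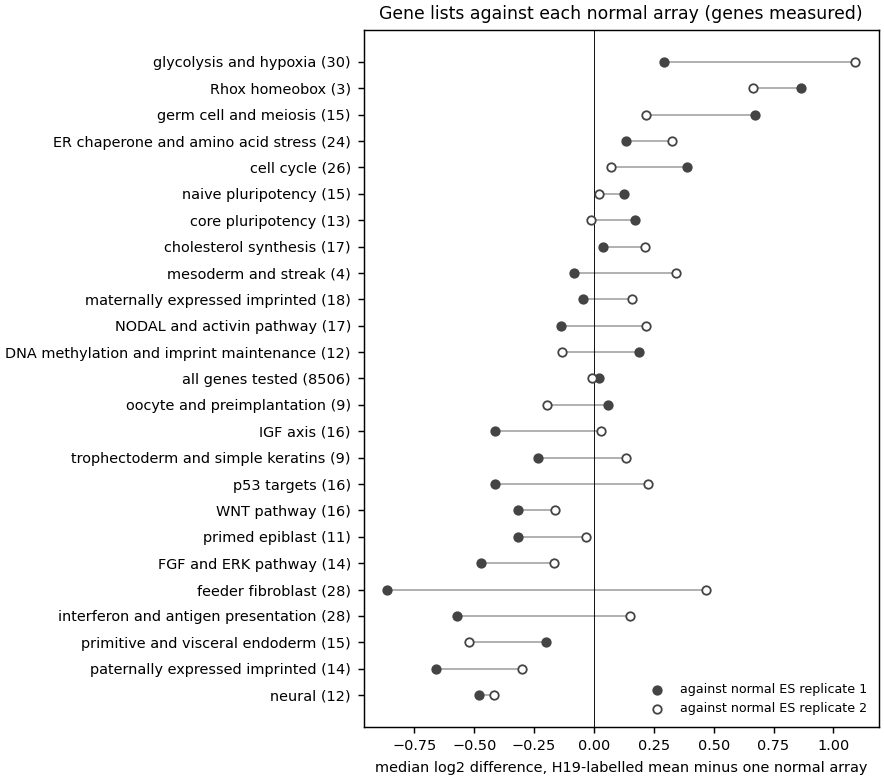
Median log2 difference of the H19-labelled mean from normal ES replicate 1 (filled) and from normal ES replicate 2 (open) for lists with at least 3 measured genes, and for all 8506 genes. Glycolysis and hypoxia, germ cell and Rhox genes lie above 0 and neural, paternally expressed and endoderm genes below 0 against both arrays, while feeder fibroblast markers run from -0.87 to 0.47.

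Rises were unevenly spread over the genome. Chromosome 6 holds 429 of the genes tested, 5.04%, and 77 of these rose, 17.9% of the chromosome and 30.3% of all rises. Its median difference was 0.36, 0.40 against normal replicate 1 and 0.37 against normal replicate 2. Above both normal arrays lay 271 of its genes, 63.2%, beside 23.1% of all genes. On the other chromosomes this share ran from 13.4% on chromosome X to 27.7% on chromosome 8. The medians of the 19 other chromosomes with at least 10 genes ran from -0.13 on chromosome X to 0.01, and at most 3% of their genes rose. In 6 bins of equal gene number along chromosome 6 the median was between 0.33 and 0.40, so the shift was seen from one end to the other. The chromosome's level, centred on the mean of all 8 arrays for each gene, had a median of -0.18 and -0.14 on the normal arrays, 0.22 and 0.22 on the H19-labelled arrays, -0.19 and -0.22 on the parthenogenetic arrays and 0.17 and 0.16 on the Igf2-labelled arrays. The number of rises on chromosome 6 was 213 and 226 when normal replicate 1 or 2 was left out, 15 without either Igf2-labelled array, 18 without either parthenogenetic array and 0 without either H19-labelled array. The chromosome's median was between 0.35 and 0.40 in these fits.

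Against that direction, 5 genes of chromosome 6 fell, namely Mest, Peg10, Dppa3, Tril (at least 2.08-fold, undetected on the H19-labelled arrays) and Akr1b8 (-0.59), the last 2 chosen after their values were seen. Members of the lists that rose and lie on chromosome 6 include Asz1, Tead4, Igf2bp3, Hk2, Slc2a3, Pdia4 and Cdkn1b, and among the 14 largest rises Slc25a13. Away from chromosome 6, 177 genes rose and 202 fell among 8077, beside 2.99% and 2.43% of all genes. The box plot by chromosome shows chromosome 6 apart from the others.

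**Figure D5:**
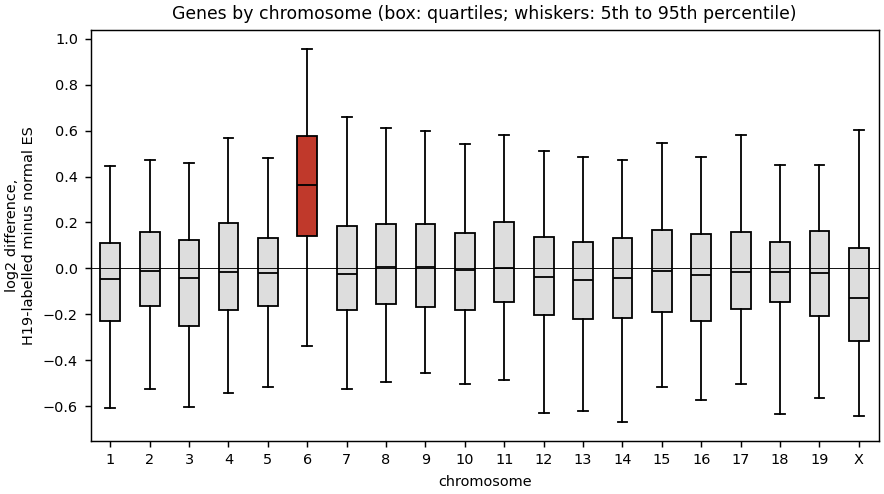
Log2 difference of H19-labelled from normal ES cells for tested genes by chromosome, with boxes from quartile to quartile, the median as a line and whiskers from the 5th to the 95th percentile. The median of chromosome 6 (red) is 0.36, and those of the other chromosomes run from -0.13 to 0.01.

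The other groups stood as follows. Among the 254 rises the parthenogenetic mean was nearer to normal ES cells for 214 and nearer to the H19-labelled arrays for 40, and among the 207 falls the numbers were 155 and 52. The Igf2-labelled mean was nearer to the H19-labelled arrays for 168 of the rises and 126 of the falls, and nearer to normal ES cells for 86 and 81. The same split over all genes tested is not given here, so these counts have no baseline. Of the 254 rises, 77 lie on chromosome 6. There the parthenogenetic arrays stood near the normal arrays and the Igf2-labelled arrays near the H19-labelled ones, as described above. Against parthenogenetic ES cells themselves 386 genes passed, the 4.54% given above. Of the paternally expressed genes that fell, Mest and Peg3 were not detected in either of these groups, so they cannot be compared, and Peg10 was detected on 1 of the 4 arrays. Snrpn and Impact differed there by -0.22 (adjusted p = 0.361) and -0.24 (adjusted p = 0.269), which misses the threshold and does not show equal levels. Sp5, Wt1, Krt8, Tnfrsf19 and Fst differed there by -3.16, -2.57, -1.82, -1.75 and -1.79, with adjusted p from 0.00227 to 0.00323. For Khdc3 the difference was 1.84 (adjusted p = 0.00529), for Otx2 0.82 (adjusted p = 0.0155), and for Pfkp 0.78 (adjusted p = 0.114).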

How the data were processed

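Biotin-labelled cRNA made from total RNA was read on Illumina bead arrays, as the labels' protocols state. Probe intensity values deposited by the authors were not normalized between arrays, and each has a detection p-value, per the file headers. They also deposited a log2 table of 12690 probes, normalized between arrays by a method not given in the sources used here. Groups and replicate numbers came from the sample titles; every value column could be assigned.

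The intensities of all 8 arrays were processed together with neqc (offset 16, detection p-values as control) in limma 3.58.1 under R 4.3.3, which subtracts background, equalises the distributions and takes log2. Probes were kept when detected (p-value under 0.05) in both replicates of either compared group. One linear model with 4 group means covered all 8 arrays (lmFit, eBayes, 4 residual and 2.84 prior degrees of freedom), so the spread is shared between groups. P-values are Benjamini-Hochberg adjusted over 12438 probes, with a threshold of 0.05. The wide spread of the normal arrays is averaged with that of the closer pairs, which understates the error of this comparison.

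Gene symbols came from the platform annotation, which named 11960 probes and left 13737 unnamed here, and 11953 matched RefSeq genes. Among tested probes 840 had no name, including the 136 not in the authors' log2 table, 37 of which passed. Genes detected in 1 group alone are therefore partly unnamed. A probe undetected on both arrays of a group is given as "at least", the brighter mean over the mean of a floor, which on each array is the lowest level of any detected probe or, if larger, the probe's own level.

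Named genes were Igf2, the markers Mest, Peg10, Khdc3, Otx2 and Pfkp, the 14 largest rises and 14 largest falls among non-overlapping genes past the threshold with both arrays of the higher group detected, members of 26 gene lists past the threshold (up to 8 for imprinted lists and 5 for others), all measured paternally expressed genes, and at most 3 others per list by level. Members and lists were chosen with earlier results of these data known. Lists are described by counts and medians, without a test, and medians with undetected genes at their bounds were the same. On simulated data with 200 changed probes the fit recovered 60.4% of log2 changes of 1 and 89.2% of changes of 2, with 4.18% false calls. The simulated spread of a probe was the same in all groups, while the normal arrays here lay farther apart than the other pairs. These shares therefore do not give the share of false calls in this comparison. The number of arrays limits the precision. Alternatives were other background corrections, filters and priors, the authors' table, array weights, the replicate number as a block, the compared groups alone and each array left out in turn.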

Additional observations from a re-analysis of the deposited data

How the results depend on the processing

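The number of probes past the threshold, 699, lay within 1.5 times under other background corrections, other detection filters, the authors' log2 table and a trended and robust prior (640 to 740). It was 64 with array weights, 2 in a fit of the compared groups alone and 42 to 4034 with 1 array left out. Shared replicate numbers were not taken to pair the samples: deviations of same-numbered arrays correlated at 0.0013 between the H19-labelled and normal arrays, and from -0.0222 to 0.1826 over the pairs of groups. With the replicate number as a block the count was 531. Against parthenogenetic ES cells the count of 567 probes was 4545 with array weights, 3966 in the groups alone, 332 with the replicate block, 4196 without both normal arrays, an alternative added after the data were seen, and 0 to 4196 with 1 array left out; the 0 came without either H19-labelled array, where 1603 and 1693 probes had an unadjusted p under 0.05. For the 28 largest changes, 183 of 224 values with 1 array left out and 258 of 290 under other settings kept direction and call, 41 and 32 lost the call, and 0 changed sign. With 1 array left out, differences that did not pass changed sign for Igf2 (-0.66 to 1.33), Ndn (-0.82 to 0.25), Dlk1 (-0.24 to 1.31), Ddc (-0.20 to 0.51), Jade1 (-0.102 to 0.006) and Acta2 (-1.03 to 0.85), in each case on leaving out a normal array. Where a lone array was left, its spread was taken from the other groups. The cause of these moves was not tested. Signal over background limits the genes undetected in a group, whose folds are bounds.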
